A study of Caenorhabditis elegans with 3 samples.

Results

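The vacuolar ATPase is a rotary proton pump that acidifies lysosomes, endosomes and secretory vesicles and moves protons across some epithelial membranes. Its cytosolic V1 sector hydrolyses ATP, and its membrane V0 sector carries the protons. In C. elegans the pump is known for its roles in the excretory canal, the intestine, the epidermis and yolk uptake. The 8 V1 genes taken here, vha-8 to vha-15, encode subunits A to H of the sector and were chosen by name with earlier results of these data in view. All 8 were listed in both deposited tables, among 10168 genes listed in either table.

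PolyA RNA of young adult animals was sequenced in 3 libraries, all labelled 2.5 days and all of the fem-1 strain, which served as a sterile control for animals that lose dcr-1 function. The groups were mock, dcr-1 RNAi and drsh-1 RNAi, given by feeding, with 1 library per group. What the mock animals were fed is not stated in the labels. dcr-1 encodes Dicer, which cuts double-stranded RNA and microRNA precursors, and drsh-1 encodes Drosha, which releases microRNA precursors in the nucleus. The dcr-1 transcript was at 36.8 FPKM (fragments per kilobase of transcript, corrected for library size) under mock and 23.8 FPKM under its own RNAi. That of drsh-1 was, in its own table, at 31.9985 FPKM (mock) and 20.9 FPKM (drsh-1 RNAi), with a mock value of 26.2 FPKM in the other table. With 1 library per group no difference below has a replicate check, no test was possible, and folds describe these libraries. Read counts were not analysed here, so the depth is unknown. Genes are listed only above 2 FPKM in both libraries of a table. Levels are FPKM, and log2 ratios are of (FPKM + 1), which understates the ratio of low genes. In whole animals fewer cells of a type and less RNA per cell cannot be told apart.

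The V1 transcripts did not move as a block. vha-12, which encodes the B subunit, was far lower than mock in both RNAi libraries, while the other 7 members stayed within 2.17-fold of mock under dcr-1 RNAi and within 1.32-fold of it under drsh-1 RNAi. Both comparisons share the 1 mock library and so are not independent. Of the 8 members, 6 were above mock in each RNAi library, beside 55.5% of all genes under dcr-1 RNAi and 50.4% under drsh-1 RNAi. vha-9 in both RNAi libraries and vha-13 in drsh-1 RNAi went to just below mock when libraries were scaled to a common sum of listed FPKM. vha-12 and vha-10 were below mock in both, under every scaling tried.

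**Figure D1:**
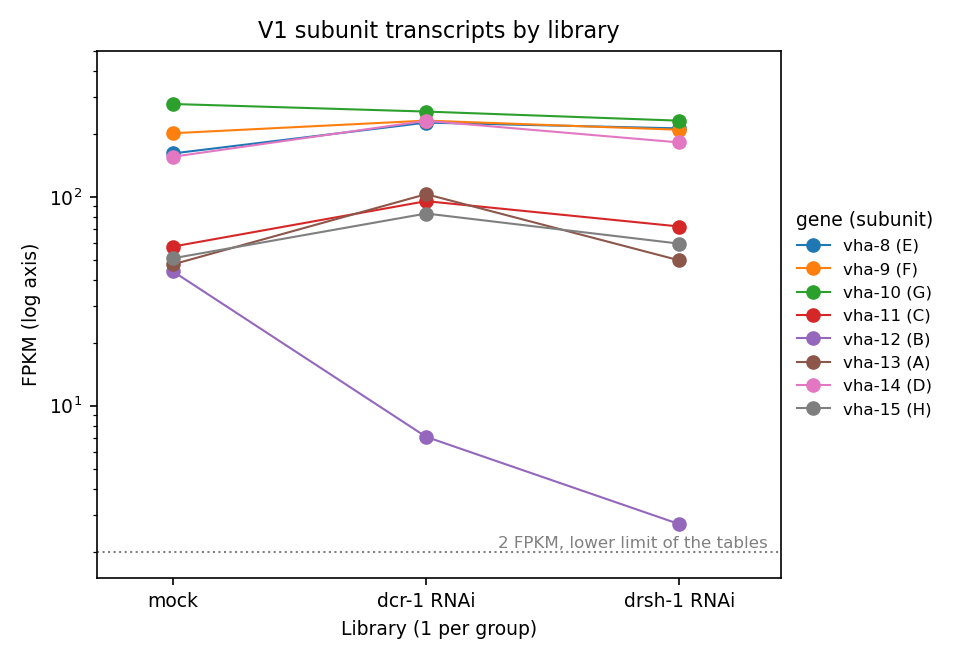
FPKM of the 8 V1 genes (log axis) in the mock, dcr-1 RNAi and drsh-1 RNAi libraries, 1 point per gene and library, with thin lines joining the points of a gene. The vha-12 points are at 43.99, 7.09 and 2.71 FPKM, and the other 7 genes stay between 47.5 and 278 FPKM in all libraries.

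The catalytic head of V1 is a ring in which A and B subunits alternate, with ATP bound between them. A subunits carry the catalytic sites, and B subunits complete them from the other side. vha-13, encoding A, was at 47.5 FPKM (mock), 102.9 FPKM (dcr-1 RNAi) and 49.6 FPKM (drsh-1 RNAi). vha-12, encoding B, was at 43.99 FPKM (mock), 7.09 FPKM (dcr-1 RNAi) and 2.71 FPKM (drsh-1 RNAi). The levels of the pair were thus close to each other in mock and apart in both RNAi libraries, in opposite directions from mock in dcr-1 RNAi. The ratio of vha-13 to vha-12 FPKM was 1.08 in mock, 14.5 under dcr-1 RNAi and 18.3 under drsh-1 RNAi. This ratio is formed within a library, so it does not depend on the scaling between libraries.

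Relative to mock, the vha-12 FPKM was 6.20-fold lower in dcr-1 RNAi (log2 ratio -2.47) and 16.2-fold lower in drsh-1 RNAi (log2 ratio -3.60). Both folds rest on the same mock value of 43.99 FPKM. By log2 ratio vha-12 ranked 2 from the lowest of 9996 genes in drsh-1 RNAi and 43 from the lowest of 9631 genes in dcr-1 RNAi. The ranks hold among genes above 2 FPKM in both libraries of a table, since genes under that limit are missing. Its drsh-1 RNAi level lies just over the 2 FPKM limit of the table. Genes at least 2-fold lower than mock made up 6.53% of all genes under dcr-1 RNAi and 1.59% under drsh-1 RNAi. vha-12 was the single V1 member among them in either comparison. Counting both directions, 2 members were at least 2-fold from mock in dcr-1 RNAi, beside 13.2% of all genes, and 1 in drsh-1 RNAi, beside 3.50%. At 1.5-fold the dcr-1 RNAi count was 4 members, vha-11, vha-12, vha-13 and vha-15, beside 29.9% of all genes.

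The vha-13 FPKM was 2.17-fold higher than mock in dcr-1 RNAi (log2 ratio 1.10, rank 505 from the highest) and 1.04-fold higher in drsh-1 RNAi (log2 ratio 0.06). It was the single V1 member at least 2-fold higher than mock in dcr-1 RNAi, where 6.71% of all genes were that much higher, and its log2 ratio dropped to 0.81 with a common sum of listed FPKM. In drsh-1 RNAi 0 members and 1.91% of all genes were at least 2-fold higher.

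The central stalk, the rotor that turns inside the head, is made of subunits D and F. vha-14, encoding D, was at 155 FPKM (mock), 231 FPKM (dcr-1 RNAi) and 182 FPKM (drsh-1 RNAi), with log2 ratios of 0.57 and 0.23. vha-9, encoding F, was at 201 FPKM (mock), 232 FPKM (dcr-1 RNAi) and 209 FPKM (drsh-1 RNAi), with log2 ratios of 0.20 and 0.05. Both were highest in dcr-1 RNAi and lowest in mock. For vha-9 the libraries differed by at most 1.15-fold, and with a common sum its log2 ratios became -0.09 and -0.02.

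The peripheral stalks, which hold the head still against the turning rotor, are made of subunits E and G. vha-8, encoding E, was at 161 FPKM (mock), 226 FPKM (dcr-1 RNAi) and 212 FPKM (drsh-1 RNAi), with log2 ratios of 0.49 and 0.40. Its log2 ratio was the highest of the 8 members in drsh-1 RNAi. vha-10, encoding G, was at 278 FPKM (mock), 256 FPKM (dcr-1 RNAi) and 231 FPKM (drsh-1 RNAi), with log2 ratios of -0.12 and -0.26. E and G pair in each stalk, and their transcripts lay on opposite sides of mock in both RNAi libraries. The vha-10 differences were 1.09-fold and 1.20-fold.

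Subunits C and H link V1 to V0 and, as known from yeast, take part in the reversible release of V1 and in holding released V1 inactive. vha-11, encoding C, was at 57.7 FPKM (mock), 95.3 FPKM (dcr-1 RNAi) and 72.1 FPKM (drsh-1 RNAi), with log2 ratios of 0.71 and 0.31. vha-15, encoding H, was at 50.8 FPKM (mock), 83.2 FPKM (dcr-1 RNAi) and 59.6 FPKM (drsh-1 RNAi), with log2 ratios of 0.70 and 0.23. The order of the libraries was the same for both genes, as it also was for vha-8, vha-9, vha-13 and vha-14. The log2 ratios of vha-11 and vha-15 differed from each other by less than 0.1 in each comparison. In FPKM, dcr-1 RNAi was 1.65-fold over mock for vha-11 and 1.64-fold for vha-15.

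Summed over the 8 genes, V1 transcripts came to 996 FPKM (mock), 1233 FPKM (dcr-1 RNAi) and 1019 FPKM (drsh-1 RNAi). The listed genes as a whole also summed higher in dcr-1 RNAi. As a share of the summed FPKM of the 9043 genes whose mock value is equal in both tables, the V1 sum was 0.154% (mock), 0.156% (dcr-1 RNAi) and 0.150% (drsh-1 RNAi). vha-12 made up 4.42% of the V1 sum in mock, 0.575% under dcr-1 RNAi and 0.266% under drsh-1 RNAi. The summed V1 level thus hardly shows the vha-12 difference.

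The median log2 ratio of the 8 members was 0.53 in dcr-1 RNAi, against 0.06 for all genes, and 0.14 in drsh-1 RNAi, against 0.00 for all 9996 genes. Scaling to a common sum shifted the median of all genes by -0.27 in dcr-1 RNAi and put the member median at 0.24 there, beside -0.21 for all genes. The central 50% of all genes lay between log2 ratios of -0.30 and 0.38 in dcr-1 RNAi, and 5 members, vha-8, vha-11, vha-13, vha-14 and vha-15, were above that range. In drsh-1 RNAi the same range was -0.16 to 0.16, with vha-8, vha-11, vha-14 and vha-15 above it and vha-10 and vha-12 below it.

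**Figure D2:**
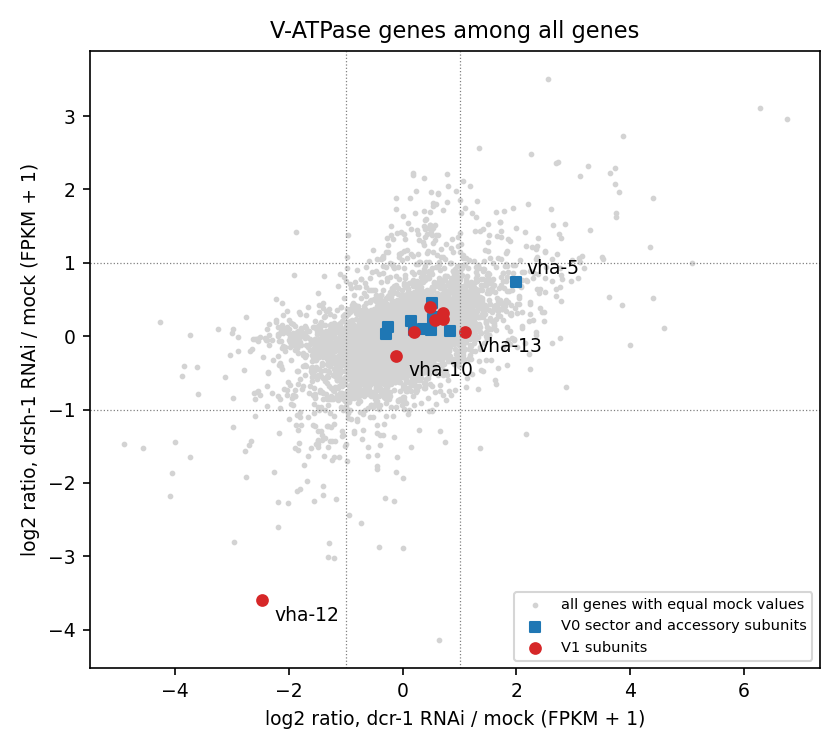
Log2 ratio against mock in dcr-1 RNAi (x axis) and drsh-1 RNAi (y axis) of the 9043 genes with equal mock values (grey), with V0 and accessory genes as blue squares and V1 genes as red circles; dotted lines mark 2-fold. Both axes share the mock library. vha-12 lies at -2.47 and -3.60, away from the other V1 genes, whose log2 ratios run from -0.12 to 1.10 and from -0.26 to 0.40.

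The RNAi libraries were also set against each other over the 9043 genes with equal mock values, which include all 8 members. All 8 were higher in dcr-1 RNAi than in drsh-1 RNAi, with a median log2 ratio of 0.37 against 0.06 for all genes, except that vha-8, vha-9 and vha-10 were lower with a common sum (5 of 8 higher). Of all 9043 genes, 55.5% were higher in dcr-1 RNAi without that scaling, and with it their median log2 ratio was -0.14. Without it, the log2 ratios of the members ran from 0.09 for vha-8 to 1.13 for vha-12. vha-12 and vha-13 were at least 2-fold higher in dcr-1 RNAi, as were 4.29% of all genes, and 0 members but 5.78% of all genes were at least 2-fold lower (10.1% in either direction). For vha-12 this sets 7.09 against 2.71 FPKM, both low, and its log2 ratio ranged from 0.65 to 1.36 over the alternatives tried. For vha-13 it sets 102.9 against 49.6 FPKM, and the log2 ratio ranged from 0.82 to 1.05.

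In order of level, the members fell into a high group of vha-10, vha-9, vha-8 and vha-14 and a lower group of vha-11, vha-15, vha-13 and vha-12 in every library. The high group was between 155 and 278 FPKM in mock, and the lower group between 43.99 and 57.7 FPKM. vha-10 was highest and vha-12 lowest in all 3 libraries. Neighbours within each group were close in mock, vha-8 and vha-14 at 161 and 155 FPKM and vha-15 and vha-13 at 50.8 and 47.5 FPKM, and with 1 library their order has no spread to set it against. vha-13 stood at position 7 of the order in mock and in drsh-1 RNAi, but above vha-11 and vha-15 in dcr-1 RNAi. The highest member was 6.32-fold over the lowest in mock, 36.1-fold under dcr-1 RNAi and 85.4-fold under drsh-1 RNAi. With vha-12 set aside the span was 5.86-fold, 3.08-fold and 4.66-fold.

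The genes of the high group have the shorter transcripts. The longest annotated transcript was 518 bases for vha-9, 644 for vha-10, 1129 for vha-14 and 1134 for vha-8. It was 1619 bases for vha-11, 1767 for vha-15, 1904 for vha-12 and 2333 for vha-13. The encoded proteins ran from 121 residues for the F subunit vha-9 to 606 for the A subunit vha-13, with 491 for the B subunit vha-12. The rank correlation of FPKM with transcript length over the 8 members was -0.93 in mock, -0.83 under dcr-1 RNAi and -0.86 under drsh-1 RNAi. It is a description over 8 genes of the same libraries, and FPKM itself is divided by length.

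**Figure D3:**
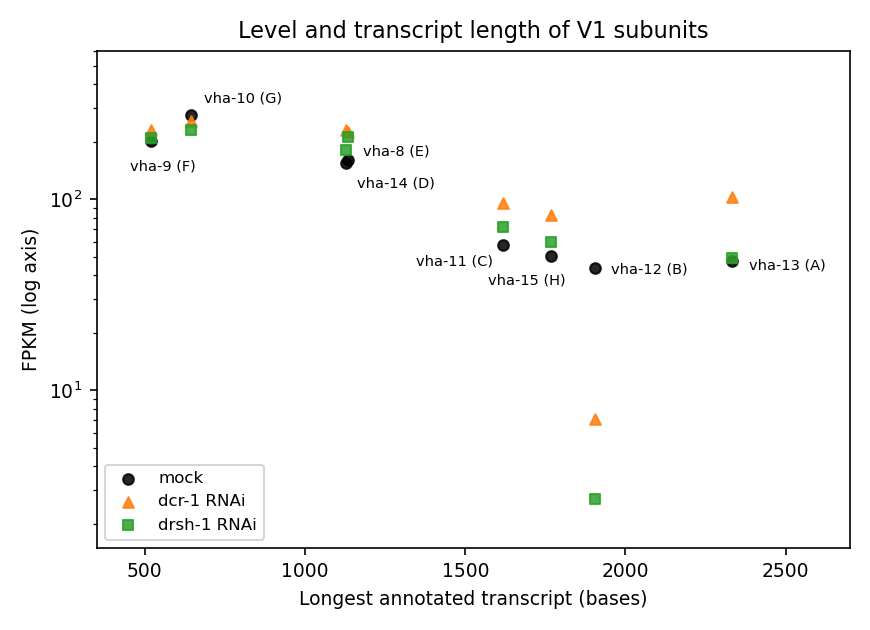
FPKM (log axis) of the 8 V1 genes against the length of the longest annotated transcript in bases, for mock (black circles), dcr-1 RNAi (orange triangles) and drsh-1 RNAi (green squares). The 4 genes of up to 1134 bases are at 155 FPKM or more, and vha-12, at 1904 bases, is the single gene whose RNAi points lie far under its mock point.

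By the annotation used here, vha-12 has 1 annotated transcript, on chromosome X, with 4 exons and a 3' UTR of 426 bases. The 3' UTRs of vha-8 (429 bases) and vha-11 (431 bases), both on chromosome IV, are of nearly the same length. Over the 8 members they run from 152 bases for vha-9 to 504 for vha-13. The median was 156 bases over 8799 annotated genes of both tables. vha-15 is also on chromosome X, where the median log2 ratio of listed genes was -0.00 in dcr-1 RNAi (1124 genes) and 0.03 in drsh-1 RNAi (1206 genes). At least 2-fold lower on X were 8.10% in dcr-1 RNAi, more than on any other chromosome, and 1.91% in drsh-1 RNAi. The shares over all genes were 6.53% and 1.59%. vha-9, vha-10, vha-13 and vha-14 are on chromosomes II, I, V and III, and only vha-11 and vha-15 have 2 annotated transcripts. The mock value of each of the 8 members was the same in both tables.

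Of the 20 protein-coding genes nearest to vha-12 in annotated order, 10 on each side, 4 were listed in both tables, and these were looked up after the vha-12 values were seen. ZK470.2, nck-1, F20B6.9 and F48D6.4 had log2 ratios from -0.64 to 0.52 in dcr-1 RNAi and from -0.28 to 0.68 in drsh-1 RNAi. Next to vha-11 on the same strand lies vha-3, a V0 proteolipid gene, which had 0.50 and 0.08 beside 0.71 and 0.31 for vha-11. vha-13 overlaps its neighbour Y49A3A.3 in the annotation, on the same strand, and that gene had 0.28 and -0.10, so reads in the overlap may be shared.

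All 12 genes of the partner sector V0 and its accessory subunits were listed, the lowest log2 ratio being -0.79 under dcr-1 RNAi and -0.04 under drsh-1 RNAi. At least 2-fold lower were 0 of 12 in either RNAi library, beside 6.53% and 1.59% of all genes, so the count is near the background. Their median log2 ratio was 0.43 in dcr-1 RNAi, with 9 above mock, and 0.11 in drsh-1 RNAi, with 11 above mock, beside 55.5% and 50.4% of all genes above mock. With a common sum of listed FPKM, vha-2 and vha-7 went below mock in dcr-1 RNAi (7 of 12 above) and vha-1 in drsh-1 RNAi (10 of 12 above). The median log2 ratio of all genes was then -0.21 and -0.07, so the 55.5% and 50.4% do not apply to these counts.

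Among the a subunits, which form the proton half-channels, vha-5, known from the excretory canal and epidermis, was at 6.74 FPKM (mock), 29.8 FPKM (dcr-1 RNAi) and 11.9 FPKM (drsh-1 RNAi), with log2 ratios of 1.99 and 0.73. The intestinal vha-6 had 0.56 and 0.26, and vha-7 had 0.20 and 0.08. unc-32, known from neurons, had -0.79 and -0.04, but its mock value differs between the tables, at 70.4 and 78.9 FPKM. The a subunit genes thus lay on both sides of mock in dcr-1 RNAi.

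Of the proteolipid genes of the rotor ring, vha-2 was the most abundant V0 transcript at 559 FPKM (mock), 618 FPKM (dcr-1 RNAi) and 647 FPKM (drsh-1 RNAi). The others were vha-1 (log2 ratios -0.30 and 0.03) and vha-4 (0.51 and 0.45), besides vha-3. vha-16, encoding the d subunit that couples the ring to the central stalk, had 0.53 and 0.24, and vha-17, encoding the e subunit, -0.26 and 0.12. The accessory genes vha-19 and vha-20 had 0.36 and 0.84 in dcr-1 RNAi and 0.10 and 0.08 in drsh-1 RNAi.

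V1 paralogs outside the 8 members were vha-18, a second H subunit gene, and spe-5, a second B subunit gene known from sperm. vha-18 was at 66.9 FPKM (mock), 76.1 FPKM (dcr-1 RNAi) and 75.3 FPKM (drsh-1 RNAi), above vha-15 in mock and drsh-1 RNAi and below it in dcr-1 RNAi. spe-5 was not listed in either table, so no second B subunit transcript has a value beside the low vha-12. Near-identical stretches of paralogs could share reads, which was not tested.

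Of 4 genes for factors linked to V-ATPase assembly or binding, the rabconnectin genes rbc-1 and rbc-2 had log2 ratios of -0.53 and -0.84 in dcr-1 RNAi and -0.07 and -0.10 in drsh-1 RNAi. The TLDc domain genes eak-7 and lmd-3 had 1.05 and -0.16 in dcr-1 RNAi and 0.03 and -0.14 in drsh-1 RNAi. The rabconnectin genes were under 9 FPKM in all libraries.

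The mitochondrial ATP synthase, a related rotary machine, had a median log2 ratio of 0.53 in dcr-1 RNAi, equal at 2 decimals to that of the V1 members, with 10 of 10 genes above mock (7 of 10 with a common sum, without atp-1, atp-3 and atp-4) and 3 at least 2-fold higher. Without that scaling, 55.5% of all genes were above mock and 6.71% at least 2-fold higher there. With the common sum the median log2 ratio of all genes was -0.21, so the 55.5% does not apply to the 7 of 10. In drsh-1 RNAi the mitochondrial ATP synthase had a median of 0.09. Its counterpart of the V1 head, the catalytic beta subunit gene atp-2, had 1.68 and 0.39, and the alpha subunit gene atp-1 had 0.16 and 0.06, the lowest of that list in dcr-1 RNAi. The highest was atp-5 with 2.73 and 2.38, and the lowest in drsh-1 RNAi was atp-4 with -0.10. At least 2-fold lower were 0 of 10 in either library, beside 6.53% and 1.59% of all genes.

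Other ATP-driven ion pumps, with 14 of 18 genes listed in each table, had medians of 0.11 and 0.11. They ran from -0.45 for nkb-1, a sodium pump beta subunit gene, to 1.88 for catp-3, a P-type ATPase gene, in dcr-1 RNAi. In drsh-1 RNAi they ran from -0.16 for catp-1 to 1.29 for catp-3.

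**Figure D4:**
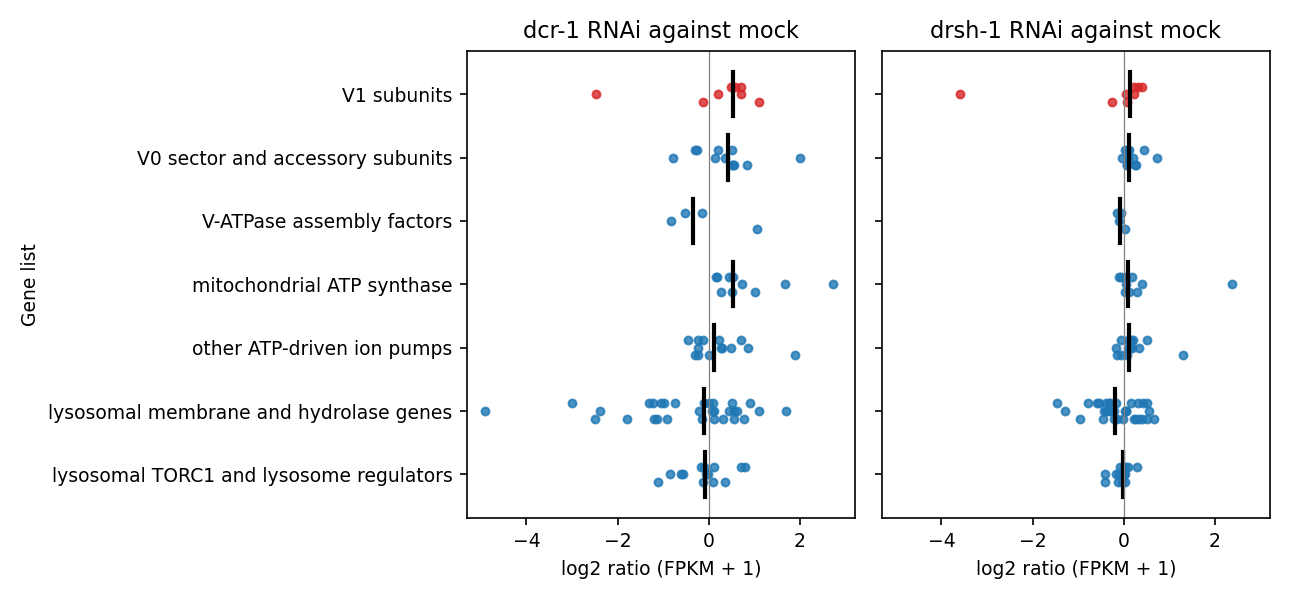
Log2 ratio of each listed gene against mock in dcr-1 RNAi (left) and drsh-1 RNAi (right) for the V1 subunits (red) and 6 related lists (blue); each point is a gene and each black bar the median of its list. The far-left V1 point is vha-12 in both panels, at -2.47 and -3.60.

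Lysosomal membrane and hydrolase genes, whose products work in the compartment that the pump acidifies, had a median of -0.10 in dcr-1 RNAi over 31 listed genes, of which 2 were 2-fold higher or more and 10 as far below, beside 6.71% and 6.53% of all genes. In drsh-1 RNAi the median was -0.19 over 34 genes, with 0 higher and 2 lower by that size, beside 1.91% and 1.59% of all genes. The cathepsin L gene cpl-1 was the highest in both (1.70 and 0.66), and the lipase gene lipl-2 the lowest in both (-4.90 and -1.47). Lysosomal TORC1 and lysosome regulators had medians of -0.08 and -0.03 over 14 listed genes each. They ran from the folliculin gene flcn-1 (-1.12) to nprl-2 (0.80) in dcr-1 RNAi and from flcn-1 (-0.42) to the Ragulator gene lmtr-3 (0.28) in drsh-1 RNAi. The flcn-1 mock value was 43.9 FPKM beside dcr-1 RNAi but 54.6 FPKM beside drsh-1 RNAi.

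The 5 genes whose log2 ratios lay nearest to those of vha-12 were W02D7.11, tab-1, K06A1.3, C05B5.4 and ceh-5, out of 8108 candidates. Candidates were listed in both tables with equal mock values and had a mean of at least 5 FPKM. Likeness was the distance over both log2 ratios against mock, which rest on 3 libraries and share mock. The distances ran from 0.92 to 1.40 on the log2 scale. tab-1 and ceh-5 are homeobox genes, and RefSeq now names K06A1.3 cutl-16. W02D7.11 was at 29.2 FPKM (mock), 2.89 FPKM (dcr-1 RNAi) and 3.31 FPKM (drsh-1 RNAi). tab-1 was at 43.5, 8.74 and 6.35 FPKM in the same libraries. The gene ranked nearest to the member median was ZK287.9, at a distance of 0.003, followed by Y106G6D.6, syn-13, Y37H2A.12 and C16A11.5, the last at 0.015. The member median is not a gene, and vha-12 was singled out with its low log2 ratios already known. Genes under the 2 FPKM limit are missing from the candidates. The distances therefore only describe positions, and the contrast between them is no separate support for the vha-12 difference.

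Marker lists of tissues that use the pump or fill the animal also differed between libraries. Of 7 excretory canal markers, 3 were listed in the dcr-1 table, summing to 89.8 FPKM (mock) and 43.2 FPKM (dcr-1 RNAi), from exc-4 (-2.59) to aqp-8 (0.56). Listed for drsh-1 RNAi were 4, summing to 95.8 and 91.9 FPKM, from exc-5 (-0.31) to aqp-8 (0.03). pgp-12, glt-3 and ceh-6 were not listed. Of 10 hypodermis markers 5 were listed, summing to 420.4 FPKM (mock), 1508 FPKM (dcr-1 RNAi) and 403 FPKM (drsh-1 RNAi). The adult collagen gene col-19 makes up most of these sums (2.095 and 0.15). The other 4 were wrt-10 (-1.16 and -2.21), lin-26 (-0.16 and -1.38), elt-1 (-0.29 and -0.91) and elt-3 (0.02 and -0.09), and the list median was -0.16 under dcr-1 RNAi and -0.91 under drsh-1 RNAi. The part of these markers in the vha-12 difference was not tested.

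Of 10 intestine markers 9 were listed, summing to 1227 FPKM (mock), 540.5 FPKM (dcr-1 RNAi) and 832 FPKM (drsh-1 RNAi). cpr-1 alone was at 1030.4, 181 and 593 FPKM in these libraries. The list median was 0.18 with 5 of 9 above mock in dcr-1 RNAi, beside 55.5% of all genes. In drsh-1 RNAi the list median was 0.20 with 7 of 9 above mock, beside 50.4% of all genes. Both ends of the list were the same genes in both libraries, the intestinal actin gene act-5 (2.51 and 0.94) and the cathepsin B gene cpr-1 (-2.50 and -0.80). Of 10 muscle markers, 9 were listed, with medians of 0.70 and 0.11, summing to 913 FPKM (mock) and 1841 FPKM (dcr-1 RNAi), and to 951 and 1139 FPKM in the drsh-1 table. They ran from myo-2 (0.21) to mup-2 (2.22) in dcr-1 RNAi and from myo-3 (-0.31) to unc-89 (0.45) in drsh-1 RNAi.

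All 13 germ line markers were listed, summing to 4923 FPKM (mock), 5453 FPKM (dcr-1 RNAi) and 5456 FPKM (drsh-1 RNAi), from pgl-1 (-1.15) to cpg-1 (0.45) in dcr-1 RNAi and from glh-1 (-0.18) to pgl-1 (0.36) in drsh-1 RNAi. Of 10 neuron markers, 5 and 6 were listed, with unc-119 the lowest in both (-0.76 and -0.52) and egl-3 (0.38) and ric-4 (0.05) the highest. The neuron list median was -0.11 in dcr-1 RNAi, with 1 of 5 above mock, beside 55.5% of all genes. In drsh-1 RNAi it was -0.28, with 1 of 6 above mock, beside 50.4% of all genes. The neuron markers summed to 379 and 362 FPKM in the dcr-1 table and 385 and 356 FPKM in the drsh-1 table. Of 14 sperm markers, 1 was listed for dcr-1 RNAi, msp-19 at 2.21 FPKM in mock and 3.64 FPKM, and 0 for drsh-1 RNAi. An unlisted gene was only not above 2 FPKM in both libraries, and all libraries share the stage and strain. The listing of markers is therefore no check of the labels' young adult stage and sterile strain. The part of these tissue markers in the V1 differences was not tested.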

How the data were processed

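The authors deposited 2 tables without a header, 1 per RNAi target, giving FPKM values for mock and RNAi and a log2 ratio per gene name. Tools listed per the submitters' processing notes are TopHat2 2.06, Cufflinks, Cuffdiff 2.1.1, SAMtools and CASAVA 1.8.2, with no order. Genome build, annotation, scaling and the reason for the 2 FPKM limit are not given in the sources used here, and coordinates are therefore left out. The deposited log2 ratio equals that of (FPKM + 1) to within 5.0e-12. Mock was taken as the column both tables share, and the RNAi library from the table's name. The mock value was unequal for 416 of 9459 shared genes, which were left out of the direct comparison.

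Ratios, ranks and list medians were computed in Python 3.11.15, with rank correlations from SciPy 1.17.1. Simulated data were used to check only the ratios scaled to a common sum, upper quartile or median ratio. The unscaled ratios, ranks, list medians and rank correlations had no such check. Names were matched through RefSeq symbols and locus tags (9724 of 10168). Transcripts, chromosomes and gene order come from Ensembl release 115 (WBcel235). Where a symbol is not in the tables, the sequence name was used. Members, lists and naming rules were chosen with earlier results of these data known. Named genes were the members, the V1 paralogs, V0, accessory and assembly genes, the highest and lowest gene of each other list, the RNAi targets and the 5 genes nearest to vha-12 and to the member median. Neighbouring genes and further marker genes named in the text were picked after their values were seen.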

Additional observations from a re-analysis of the deposited data

How the results depend on the processing

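With 1 library per group and unknown depth, no value has an error, and a change of over 0.1 on the log2 scale was counted as a move. Alternatives were pseudocounts of 0.1 and 5 FPKM, scaling to a common median ratio, upper quartile or sum, a mean of at least 5 FPKM, and, for the direct comparison, all shared genes. No paired analysis was possible because each group has 1 library. vha-12 stayed below mock throughout, from -2.73 to -2.02 in dcr-1 RNAi and from -3.97 to -2.67 in drsh-1 RNAi. Of 151 member values under alternatives, 22 moved by that size. With the common sum every member moved in dcr-1 RNAi, both against mock and against drsh-1 RNAi. The sign changed for 6 of the 151, all with the common sum and all within 0.2 of 0 before. In dcr-1 RNAi against mock, the common sum gave a median of 0.24 and 1 member at least 2-fold apart in place of 2, and a 1.5-fold size gave 4 members. In dcr-1 against drsh-1 RNAi, the common sum gave a median of 0.15, 5 members above and 0 at least 2-fold apart. There the 2 members at least 2-fold apart became 0 with a pseudocount of 5 FPKM and 1 with the common median, the upper quartile or the 5 FPKM minimum, which leaves out vha-12. The pseudocount of 5 FPKM also gave 816, 188 and 566 genes at least 2-fold apart in the 3 comparisons, in place of 1275, 350 and 911. Leaving out vha-12, chosen after seeing the data, gave member medians of 0.57, 0.23 and 0.34.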
